A study of Mus musculus with 42 samples.

Results

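The genes of the GABA system and of inhibitory interneurons were followed in mouse hippocampal neurons given BDNF or extracellular vesicles. The set holds 26 genes, given as a list of symbols, out of 55471 gene entries in the count table. All 26 were found in the table, and 25 passed the filter on low counts. They comprise 3 genes for GABA synthesis and vesicle loading, 2 for uptake and breakdown, 1 postsynaptic scaffold, 9 GABA-A and 2 GABA-B receptor subunits, 4 interneuron proteins and 5 interneuron transcription factors. The list was drawn up by gene function, with earlier results of these data known.

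Primary hippocampal neurons were cultured from NMRI mouse embryos of embryonic day 16. The BDNFEV group (3 libraries) was exposed for 24 h to extracellular vesicles from BDNF-treated cortical neurons, and the BDNF group (6 libraries) received brain-derived neurotrophic factor itself at 50 ng/ml for 20 min. The CtrlEV group (3 libraries) was exposed for 24 h to vesicles from control cortical neurons, and the Ctrl group (6 libraries) served as the control of the hippocampal neurons, with vehicle as the control treatment. Per the labels' protocols, treatment with BDNF or vehicle was followed by washing in maintenance medium with B27 supplement. How long after BDNF the hippocampal cells were lysed is not stated in the labels. The libraries carry set numbers that recur in each group, 1 to 6 in BDNF and Ctrl and 1 to 3 in the vesicle groups. Set 1 is batch a, sets 2 and 3 are batch b, sets 4 and 5 are batch c and set 6 is batch d, so the vesicle groups lie in batches a and b alone. The labels do not say what a batch is, nor whether each library of a group is a culture of its own. The p-values therefore reflect no more than library-to-library spread, which may be technical.

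GABA is made from glutamate by the glutamate decarboxylases, is packed into synaptic vesicles by the vesicular GABA transporter, and is cleared by membrane transporters and broken down by GABA transaminase. It acts on GABA-A receptors, chloride channels built of several subunits whose makeup sets where on the cell the receptor sits and how long it opens, and on the metabotropic GABA-B receptors. In the hippocampus most GABA is released by interneurons, which arise from progenitors that express Dlx genes, and BDNF is known as a factor released with activity that promotes the maturation of inhibitory neurons.

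The 18 libraries held 16274937 to 36835780 counts assigned to genes, with a median of 20842203. Summed over marker lists, pan-neuronal genes stood at 5125 to 6129 CPM (counts scaled to the library size, here with TMM factors), excitatory hippocampal genes at 1850 to 2375, astrocyte genes at 2272 to 3086 and oligodendrocyte lineage genes at 847 to 1206. Striatal projection neuron genes, the markers of another GABA neuron, summed to 12.97 to 25.9 CPM. Microglia and macrophage genes summed to 12.97 to 17.8 CPM, and 7 of the 9, among them Cx3cr1, C1qa, Tmem119 and P2ry12, stayed under 1 CPM in every library. Genes of neurons and of glia were thus both present, and these sums do not give the shares of the cell types. Of 12 activity and BDNF response genes, 6 rose in BDNF against Ctrl and 0 fell, with Arc at 1.09 ± 0.18 (SE) on the log2 scale. Over all genes tested, 7.36% rose and 6.26% fell there. Summed, the 12 response genes had a median of 1052 CPM in BDNF, 1283 in Ctrl, 817.1 in CtrlEV and 703.3 in BDNFEV. The Ctrl libraries ranged from 783.4 to 1528 CPM and those of BDNF from 931.7 to 1898 CPM. The part of this spread in the changes of the GABA genes was not tested. No exon lengths were used, so levels are compared between groups and not between genes. In bulk RNA, fewer cells of a type and less RNA per cell cannot be told apart.

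In BDNF against Ctrl, 11 of the 25 tested genes passed the test, edgeR's quasi-likelihood test at a Benjamini-Hochberg adjusted p under 0.05 over all 17892 genes tested. Of these, 5 rose, namely Gad1, Gad2, Slc32a1, Abat and Calb1. Another 6 fell, namely Gabra2, Gabra3, Gabra4, Gabra5, Gabrd and Calb2. Over all genes tested, 13.6% passed in this comparison, 7.36% higher and 6.26% lower. The share among the 25 was 44%, which is read only as a description because the list was chosen with results of these data known. Their median log2 fold change was 0.06, with -0.0025 over all genes. Each gene of GABA synthesis, loading and breakdown that passed lay above 0, and each receptor subunit that passed lay below it. Without the batch in the model 4 of the 25 passed, namely Gabra2, Gabra3, Gabrd and Calb2, and none of the 5 rises did. The split of rises and falls differed with the batches used. It was 7 up and 2 down within batch b and 2 up and 5 down within batch c. In batches a and b it was 6 up and 2 down, and without batch c 6 up and 3 down. Over all genes, 528 rose and 305 fell of 17389 within batch b, and 767 rose and 446 fell of 16963 within batch c. The counts of all genes were 689 up and 375 down of 17630 in batches a and b. Without batch c they were 884 up and 565 down of 17766.

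The genes for GABA synthesis and vesicle loading rose together with BDNF, by 1.22-fold (Gad1), 1.29-fold (Gad2) and 1.25-fold (Slc32a1). Gad1 encodes a glutamate decarboxylase that supplies most of the GABA of the cell (ENSMUSG00000070880, chr2:70561303-70602014 in GRCm38.p6). Its level was 270.8, 169.6 and 165.8 CPM in BDNFEV sets 1 to 3, 209.3 to 387.5 CPM with a median of 268.8 in BDNF, 258.3, 179.3 and 165.4 CPM in CtrlEV sets 1 to 3, and 161.5 to 294.8 CPM with a median of 238.0 in Ctrl. The BDNF and Ctrl ranges overlapped widely, because sets 1, 4 and 5 were high and sets 2, 3 and 6 low in either group. With the batch in the model, the log2 fold change of BDNF over Ctrl was 0.29 ± 0.06 (SE, 95% interval 0.15 to 0.42, adjusted p = 0.00497 by edgeR's quasi-likelihood test). Within sets, Gad1 was higher in BDNF in 5 of 6, with log2 ratios from -0.015 in set 5 to 0.58 in set 2.

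Gad2 encodes the other glutamate decarboxylase, which is enriched at nerve terminals (ENSMUSG00000026787, chr2:22621015-22693877). Its level was 119.3, 74.4 and 72.8 CPM in BDNFEV, 101.4 to 176.4 CPM with a median of 125.7 in BDNF, 120.1, 79.8 and 74.6 CPM in CtrlEV, and 71.5 to 128.1 CPM with a median of 106.0 in Ctrl. The batch b libraries of BDNFEV, CtrlEV and Ctrl all lay between 71.5 and 79.8 CPM, and those of BDNF lay above them at 107.6 and 101.4 CPM. BDNF over Ctrl gave a log2 fold change of 0.37 ± 0.05 (SE, 95% interval 0.27 to 0.48, adjusted p = 2.05e-05), and the ratio was above 1 in 6 of 6 sets.

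Slc32a1 encodes the vesicular GABA transporter, which loads GABA and glycine into synaptic vesicles (ENSMUSG00000037771, chr2:158607260-158615747). Its level was 101.9, 63.6 and 57.1 CPM in BDNFEV, 77.2 to 113.1 CPM with a median of 85.8 in BDNF, 93.2, 46.9 and 51.2 CPM in CtrlEV, and 50.9 to 100.2 CPM with a median of 69.3 in Ctrl. The overlapping ranges again followed the sets, with set 1 highest or near it in each group. In the fit, the log2 fold change of BDNF over Ctrl was 0.32 ± 0.08 (SE, 95% interval 0.15 to 0.50, adjusted p = 0.0149). Set 5 went the other way, at 91.4 CPM in BDNF and 100.2 CPM in Ctrl, and the other 5 sets were higher in BDNF. Without set 6 in either the BDNF or the Ctrl group the call was lost. The log2 fold change was then 0.30 and the adjusted p 0.061 by edgeR's quasi-likelihood test. Both removals are nearly the same check, since batch d holds set 6 alone and its batch term absorbs the library left.

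**Figure D1:**
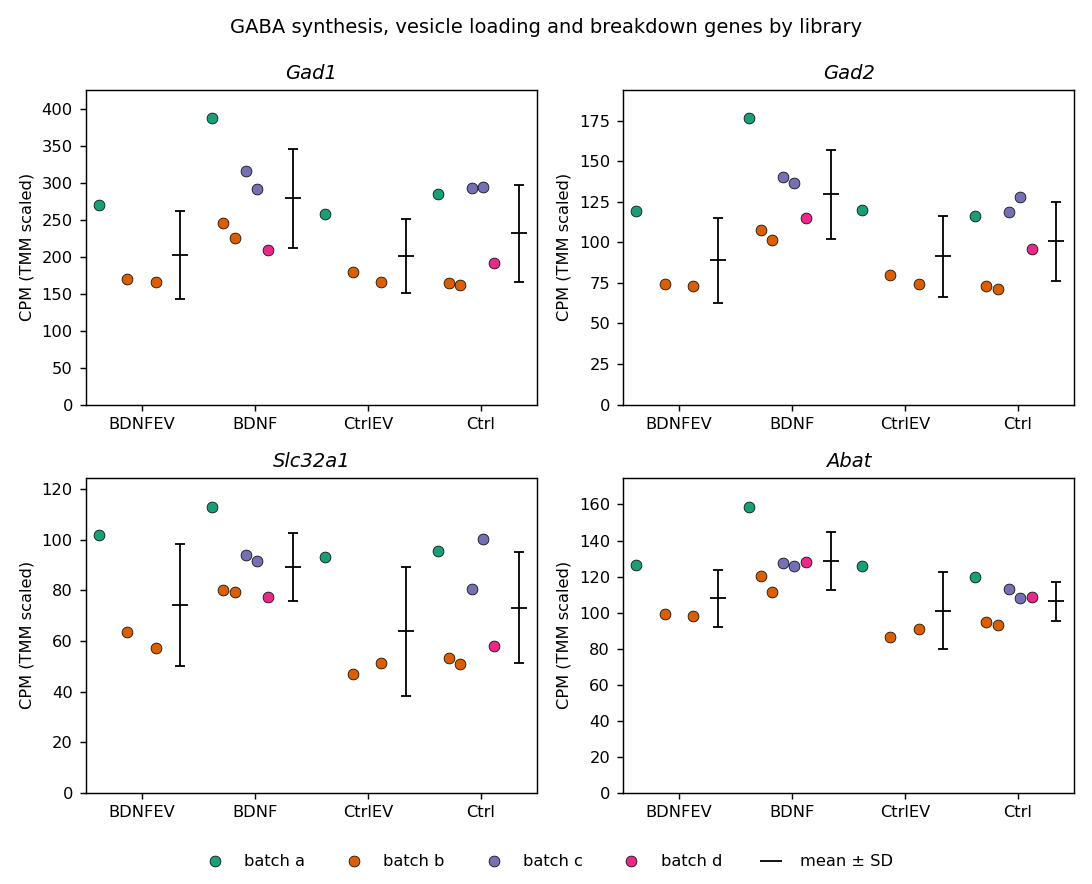
Level in CPM with TMM scaling of Gad1, Gad2, Slc32a1 and Abat in each library of the 4 groups, coloured by batch, with the mean and SD of each group beside the points. Batch b libraries sit lowest in the BDNFEV, CtrlEV and Ctrl groups, and within each batch the BDNF libraries of Gad2 and Abat sit above the Ctrl libraries.

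The BDNF effect on these genes differed between batches. Within batch b, fitted alone, the log2 fold change was 0.53 ± 0.06 for Gad1, 0.53 ± 0.06 for Gad2 and 0.61 ± 0.07 for Slc32a1 (SE, 2 libraries in each group). Within batch c it was 0.05 ± 0.06 for Gad1, 0.17 ± 0.06 for Gad2 and 0.04 ± 0.10 for Slc32a1, and none of these passed the test there. A test of the batch b effect minus the batch c effect over all 18 libraries, added after the within-batch values were seen, passed for 137 of 17892 genes (0.766%). Gad1 and Slc32a1 were among them, at 0.48 ± 0.09 (adjusted p = 0.0164) and 0.58 ± 0.12 (adjusted p = 0.0334). For Gad2 the difference was 0.36 ± 0.09 and did not pass (adjusted p = 0.0512). Batches a and d hold at most 1 library of each group and give no test of their own. On the annotation Gad1 overlaps the non-coding gene Gad1os over 2055 bp and Slc32a1 overlaps Gm14204 over 3464 bp, and without strand the reads there cannot be told apart.

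Of the uptake and breakdown genes, Abat passed and Slc6a11 did not. Abat encodes GABA transaminase, the mitochondrial enzyme that degrades GABA (ENSMUSG00000057880, chr16:8513429-8621568). Its level was 126.2, 99.2 and 98.3 CPM in BDNFEV, 111.6 to 158.8 CPM with a median of 126.9 in BDNF, 125.7, 86.6 and 91.0 CPM in CtrlEV, and 92.8 to 120.0 CPM with a median of 108.3 in Ctrl. It was higher in BDNF in 6 of 6 sets, although the lowest BDNF library (set 3) lay under the highest Ctrl libraries. Its log2 fold change was 0.28 ± 0.04 (SE, 95% interval 0.20 to 0.35, adjusted p = 8.43e-06), with 0.31 ± 0.06 within batch b and 0.20 ± 0.06 within batch c, both past the threshold. Slc6a11, a plasma membrane GABA transporter found mainly in astrocytes, averaged 202.1 ± 14.1 CPM in BDNF and 204.8 ± 9.76 CPM in Ctrl (SD, n = 6 each), with a 95% interval of the log2 fold change from -0.10 to 0.06. Gphn, which encodes the scaffold gephyrin of inhibitory synapses, averaged 90.9 ± 4.55 CPM in BDNF and 87.1 ± 7.08 CPM in Ctrl (SD, n = 6 each), with an interval from -0.013 to 0.14.

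The GABA-A receptor genes moved the other way. Of 9 subunits, 5 fell in BDNF against Ctrl, 0 rose and 4 did not pass. The 4 alpha subunit genes of the set all fell, Gabra3 by 0.56, Gabra2 by 0.19, Gabra5 by 0.17 and Gabra4 by 0.16 on the log2 scale. The delta subunit gene Gabrd fell by 0.51, and the beta and gamma subunit genes of the set did not pass. In batches a and b alone, Gabra3 was the only one of these 5 to pass (-0.45 ± 0.05, adjusted p = 2.94e-05), and Gabra2 (-0.10 ± 0.05), Gabra4 (-0.10 ± 0.055), Gabra5 (-0.14 ± 0.05) and Gabrd (-0.32 ± 0.16) did not.

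Gabra3 encodes the alpha3 subunit, known as a subunit of early development in much of the forebrain (ENSMUSG00000031343, chrX:72432676-72656919). Its level was 86.4, 74.2 and 69.8 CPM in BDNFEV, 38.1 to 64.7 CPM with a median of 49.7 in BDNF, 83.2, 62.7 and 65.3 CPM in CtrlEV, and 63.3 to 88.7 CPM with a median of 69.5 in Ctrl. The highest BDNF library (set 1) lay just above the lowest Ctrl libraries (sets 5 and 3), and the other 5 BDNF libraries lay below every Ctrl library. BDNF over Ctrl came to a log2 fold change of -0.56 ± 0.05 (SE, 95% interval -0.65 to -0.46, adjusted p = 1.32e-08). It was lower in BDNF in 6 of 6 sets, at -0.45 ± 0.07 within batch b and -0.71 ± 0.07 within batch c, and the call held under each of the 28 alternatives run.

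Gabrd encodes the delta subunit of receptors that lie outside synapses and give tonic inhibition (ENSMUSG00000029054, chr4:155384979-155398098). It was a low gene here, with 40 to 108 counts per library, and it overlaps Cfap74 over 6000 bp. Its level was 3.07, 3.20 and 2.93 CPM in BDNFEV, 1.81 to 3.12 CPM with a median of 2.37 in BDNF, 3.41, 2.88 and 3.07 CPM in CtrlEV, and 2.74 to 4.20 CPM with a median of 3.19 in Ctrl. The BDNF library of set 1 lay among the Ctrl libraries, while the other BDNF libraries lay below all of them. The log2 fold change was -0.51 ± 0.11 (SE, 95% interval -0.74 to -0.27, adjusted p = 0.00357), lower in 6 of 6 sets. The call was lost within batch b (-0.45 ± 0.21, adjusted p = 0.257) and within batch c (-0.66 ± 0.20, adjusted p = 0.0690). It was also lost in batches a and b (-0.32 ± 0.16, adjusted p = 0.279) and without batch c (-0.43 ± 0.14, adjusted p = 0.0657).

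Gabra2, Gabra4 and Gabra5 fell by less. Gabra2, whose product is enriched at the axon initial segment of principal cells, was at 485.4, 524.3 and 471.2 CPM in BDNFEV, 412.0 to 489.2 CPM with a median of 470.0 in BDNF, 482.6, 486.4 and 540.5 CPM in CtrlEV, and 485.6 to 569.1 CPM with a median of 521.9 in Ctrl. A single pair of libraries overlapped, since only the Ctrl library of set 1 lay below the highest BDNF library, that of set 3. In the fit, the log2 fold change was -0.19 ± 0.04 (SE, 95% interval -0.28 to -0.10, adjusted p = 0.00275), and within batch b it was -0.09 ± 0.07 and did not pass.

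Gabra5, whose product serves tonic inhibition of hippocampal pyramidal cells, was at 180.5, 195.3 and 196.0 CPM in BDNFEV, 157.4 to 188.2 CPM with a median of 166.4 in BDNF, 185.7, 203.4 and 203.6 CPM in CtrlEV, and 172.3 to 202.4 CPM with a median of 191.6 in Ctrl. Only the Ctrl library of set 6 lay inside the BDNF range, and BDNF was lower in each set. Its log2 fold change was -0.17 ± 0.04 (SE, adjusted p = 0.00267), and within batch b it was -0.08 ± 0.06 and did not pass. Gabra4, which encodes a partner of the delta subunit in the forebrain, was at 64.1, 59.1 and 65.6 CPM in BDNFEV, 54.1 to 84.3 CPM with a median of 63.5 in BDNF, 63.2, 64.5 and 67.4 CPM in CtrlEV, and 66.05 to 90.5 CPM with a median of 67.8 in Ctrl. Sets 4 and 5 were the highest in both BDNF and Ctrl, so the groups overlapped, and BDNF was lower in 6 of 6 sets. The log2 fold change was -0.16 ± 0.04 (SE, adjusted p = 0.0117), but it no longer passed in 7 of the 28 alternatives run. These were no batch term, batches a and b, batch b alone, batch c alone and no batch c. The others left out set 6 of BDNF or of Ctrl, nearly the same check, since batch d holds set 6 alone. Values ran from -0.10 to -0.16 and adjusted p from 0.064 to 0.485 by edgeR's quasi-likelihood test. Gabra4 shares 388 bp with Gabrb1 on the annotation, and the library kit does not mark strand, so reads there cannot be told apart.

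The sequences upstream of Gabra2 and Gabra3 are shown because these genes fell together and their windows lie outside the annotated gene. Each holds the 250 bases before the first listed start in RefSeq on GRCm38.p6, read 5′ to 3′ on the minus strand, at chr5:71095850-71096099 and chrX:72656920-72657169. Capitals would mark TGACG or its reverse complement CGTCA, the core of the cAMP response element bound by the factor CREB, and neither window holds one.
Gabra2: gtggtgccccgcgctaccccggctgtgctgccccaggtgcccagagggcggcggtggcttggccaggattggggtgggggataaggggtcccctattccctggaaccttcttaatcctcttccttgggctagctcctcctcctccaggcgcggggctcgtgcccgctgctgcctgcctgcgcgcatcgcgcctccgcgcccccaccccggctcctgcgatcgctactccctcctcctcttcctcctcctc
Gabra3: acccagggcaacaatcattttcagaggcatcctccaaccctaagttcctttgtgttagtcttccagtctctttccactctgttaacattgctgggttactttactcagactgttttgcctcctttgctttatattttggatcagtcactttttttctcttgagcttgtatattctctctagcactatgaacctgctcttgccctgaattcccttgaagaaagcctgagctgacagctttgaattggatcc
Of the 26 genes, 20 had a promoter in the table, with 27 starts between them. TGACG, on either strand, was present within 250 bases before 2 of the 27 starts, in Gad2 and Dlx2, and in 17.8% of all 32851 promoters. The full element TGACGTCA, in which TGACG is contained, was present before 0 of the 27 starts and in 1.55% of all promoters. The EGR motif GCGGGGGCG, on either strand, was present before 1 of the 27 starts, in Reln, and in 2.57% of all promoters. A match describes the letters of this window and says nothing of binding.

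Beta subunits form the GABA binding sites together with alpha subunits, and gamma subunits help to place the receptor at synapses. Gabrb1 averaged 233.4 ± 10.3 CPM in BDNF and 238.2 ± 29.0 CPM in Ctrl, and Gabrb2 91.4 ± 11.3 CPM in BDNF and 89.4 ± 12.5 CPM in Ctrl (SD, n = 6 each). Their intervals of the log2 fold change ran from -0.17 to 0.12 and from -0.06 to 0.12. Gabrg1, at 12.0 ± 1.27 CPM in BDNF and 10.7 ± 0.82 CPM in Ctrl, had a log2 fold change of 0.16 ± 0.07 (SE, adjusted p = 0.115). Gabrg3, at 26.2 ± 4.49 CPM in BDNF and 29.5 ± 3.02 CPM in Ctrl, missed the threshold, at -0.18 ± 0.06 (SE, adjusted p = 0.0522). It was lower in BDNF in 6 of 6 sets, but barely so in sets 1 to 3. The log2 ratios were -0.019, -0.047 and -0.011 in sets 1 to 3, and -0.17, -0.53 and -0.33 in sets 4 to 6. The GABA-B receptor genes Gabbr1 and Gabbr2, whose products work as a pair, did not pass either. Gabbr1 varied little, at 595.3 ± 6.79 CPM in BDNF and 585.0 ± 12.5 CPM in Ctrl (SD, n = 6 each), with an interval from -0.04 to 0.09. Gabbr2 averaged 277.1 ± 15.9 CPM in BDNF and 262.5 ± 26.2 CPM in Ctrl, with an interval from -0.03 to 0.19, and it passed within batch b (0.27 ± 0.06, adjusted p = 0.0131) but not within batch c (-0.12 ± 0.08, adjusted p = 0.478).

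**Figure D2:**
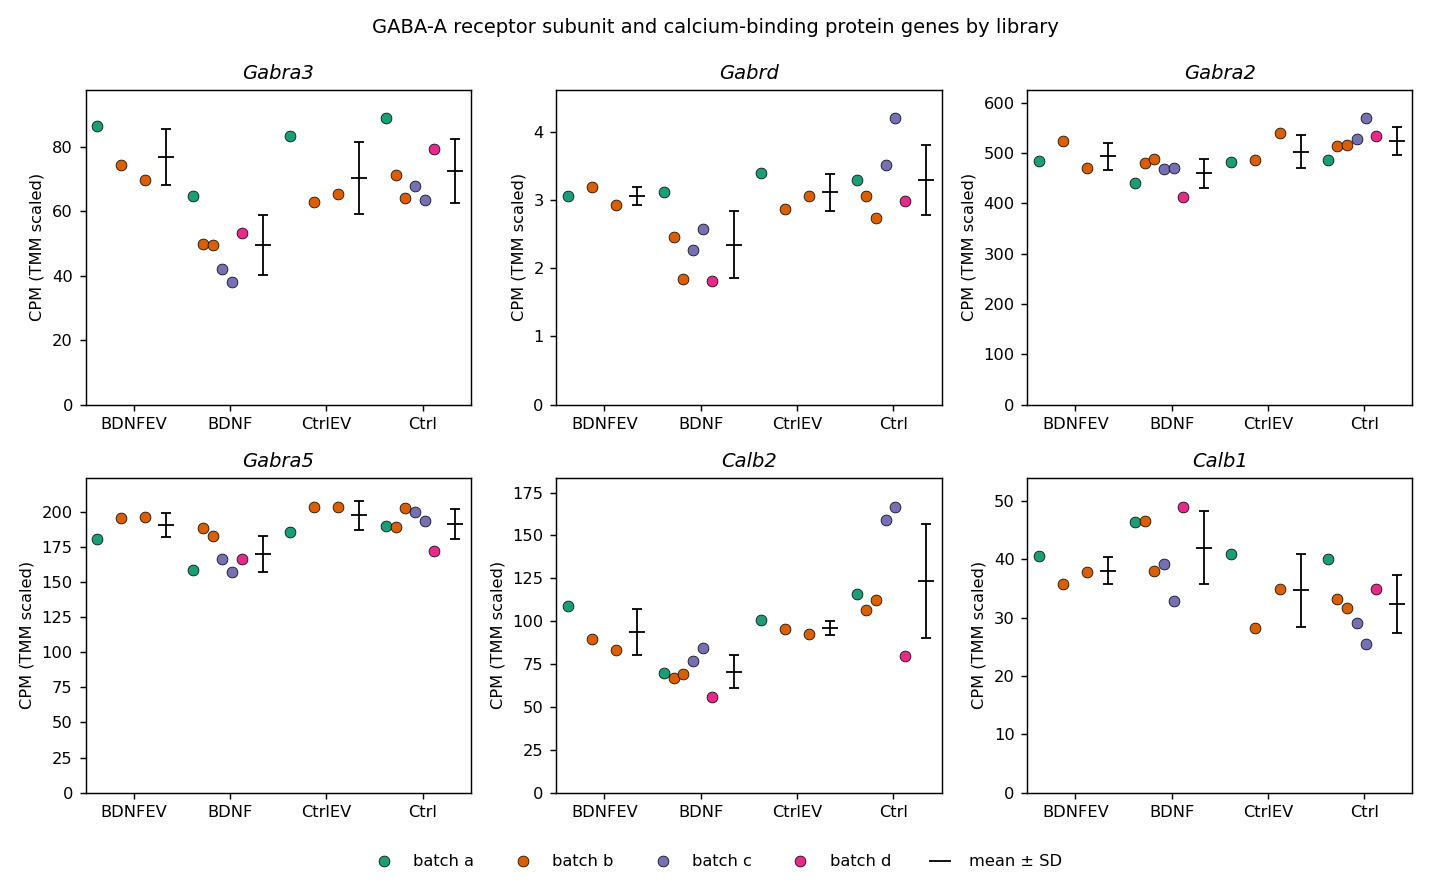
Level in CPM with TMM scaling of 4 GABA-A receptor subunit genes and of Calb2 and Calb1 in each library of the 4 groups, coloured by batch, with the mean and SD of each group beside the points. For Gabra3, 5 of 6 BDNF libraries lie under every Ctrl library, and all 3 BDNFEV libraries lie above every BDNF library.

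The calcium-binding protein genes went in opposite directions. Calb2 encodes calretinin, a marker of a class of interneurons that is also made by Cajal-Retzius cells and, in mice, by mossy cells of the hilus (ENSMUSG00000003657, chr8:110142526-110168212). Its level was 108.6, 89.3 and 83.2 CPM in BDNFEV, 55.8 to 84.3 CPM with a median of 69.4 in BDNF, 100.6, 95.7 and 92.3 CPM in CtrlEV, and 79.8 to 166.8 CPM with a median of 113.9 in Ctrl. The Ctrl libraries of sets 4 and 5 stood highest, at 159.2 and 166.8 CPM, and only the Ctrl library of set 6 lay under the highest BDNF library. BDNF reached 0.585 of the Ctrl level in the fit, a log2 fold change of -0.77 ± 0.06 (SE, 95% interval -0.90 to -0.65, adjusted p = 2.57e-08). It was lower in 6 of 6 sets, with -0.68 ± 0.06 within batch b and -1.01 ± 0.06 within batch c, and the call held under each of the 28 alternatives run. Beside it, the summed Cajal-Retzius genes stood at 191.8 to 252.9 CPM in BDNF and 190.2 to 236.4 CPM in Ctrl, with 3 of 7 genes up, 2 down and none of the 7 under 1 CPM throughout. Their part in the fall of Calb2 was not tested, and 13.6% of all genes passed in this comparison.

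Calb1 encodes calbindin, found in some interneurons and in granule and pyramidal cells (ENSMUSG00000028222, chr4:15881264-15906709). Its level was 40.6, 35.9 and 37.8 CPM in BDNFEV, 32.9 to 49.1 CPM with a median of 42.8 in BDNF, 40.9, 28.3 and 34.9 CPM in CtrlEV, and 25.5 to 40.05 CPM with a median of 32.5 in Ctrl. Ranges overlapped, yet BDNF was higher in 6 of 6 sets. Its log2 fold change was 0.38 ± 0.06 (SE, 95% interval 0.25 to 0.51, adjusted p = 0.00022), with 0.38 ± 0.10 within batch b and 0.40 ± 0.10 within batch c. Pvalb, the parvalbumin gene of fast-spiking interneurons, was close to absent, with 0 to 4 counts per library and 21 counts over all 18, and it was not tested. Reln, which encodes the secreted protein reelin of Cajal-Retzius cells and interneurons, averaged 676.9 ± 55.0 CPM in BDNF and 610.0 ± 92.5 CPM in Ctrl (SD, n = 6 each), with an interval of the log2 fold change from -0.06 to 0.37.

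The 5 interneuron transcription factor genes did not pass in BDNF against Ctrl. Lhx6, which specifies interneurons of the medial ganglionic eminence, was at 88.7, 59.8 and 54.9 CPM in BDNFEV, 54.4 to 85.6 CPM with a median of 62.04 in BDNF, 84.6, 40.1 and 47.4 CPM in CtrlEV, and 41.8 to 88.1 CPM with a median of 72.01 in Ctrl. Its levels spread more among the Ctrl libraries than between the groups, with a highest over lowest ratio of 2.11 in Ctrl. The log2 fold change was -0.03 ± 0.10 (SE, 95% interval -0.23 to 0.18, adjusted p = 0.901). This mean hid opposite values, since Lhx6 rose within batch b (0.36 ± 0.09, adjusted p = 0.0354) and fell within batch c (-0.33 ± 0.06, adjusted p = 0.00561). The difference between the batches passed the test (0.69 ± 0.12, adjusted p = 0.0196).

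The Dlx genes, homeobox genes that direct progenitors of the ganglionic eminences towards GABA neurons, had log2 fold changes of 0.13 ± 0.06 (Dlx1), 0.16 ± 0.08 (Dlx2), 0.20 ± 0.07 (Dlx5) and 0.11 ± 0.14 (Dlx6) in BDNF against Ctrl. Adjusted p ran from 0.0818 (Dlx5) to 0.676 (Dlx6) by edgeR's quasi-likelihood test. Dlx5 was higher in BDNF in 6 of 6 sets, at 4.98 to 9.02 CPM in BDNF and 4.59 to 7.34 CPM in Ctrl. Dlx1 overlaps the antisense gene Dlx1as over 3344 bp, and Dlx6 lies wholly within Dlx6os1, so their counts may hold reads of those genes.

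**Figure D3:**
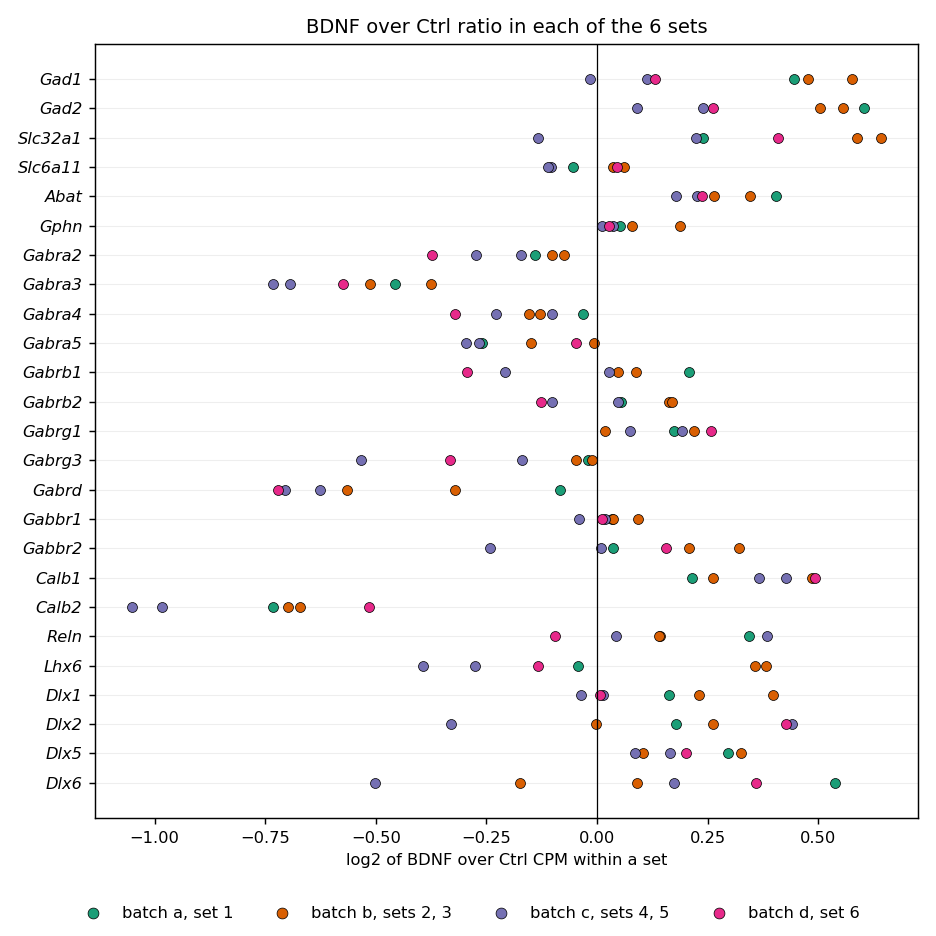
Log2 ratio of the BDNF library to the Ctrl library of the same set, in CPM with TMM scaling, for the 25 genes tested, with 1 point for each of 6 sets, coloured by batch. Gad1, Slc32a1 and Lhx6 split by batch, with batch b on the right and batch c on the left, whereas all 6 points of Gabra3 and Calb2 lie below 0.

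Because Gad1, Gad2, Slc32a1, Lhx6 and Dlx1 shared the highs and lows of the sets, the levels were also set against the summed CPM of the 5 transcription factor genes. This ratio was chosen after the values were seen and is given without a test. The sum itself was 123.5 to 204.5 CPM in BDNFEV, 124.9 to 212.7 CPM with a median of 151.2 in BDNF, 93.2 to 198.0 CPM in CtrlEV, and 102.6 to 200 CPM with a median of 163.0 in Ctrl.

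Per unit of this sum, Gad1, Gad2 and Slc32a1 were higher in BDNF than in Ctrl in 6 of 6 sets. The log2 ratios of BDNF over Ctrl ran from 0.14 to 0.36 for Gad1, from 0.21 to 0.51 for Gad2 and from 0.07 to 0.42 for Slc32a1. For Gad2 the groups no longer overlapped, with 0.741 to 0.868 CPM per CPM of the sum in BDNF and 0.581 to 0.706 in Ctrl. For Gad1 they did, with 1.45 to 1.86 in BDNF and 1.32 to 1.63 in Ctrl. Abat was higher in 5 of 6 sets, and Calb2 and Gabra3 were lower in 6 of 6. Within batch b the sum was higher in BDNF, at 145.3 and 124.9 CPM, with 114.7 and 102.6 CPM in Ctrl. Within batch c it was lower in BDNF, at 174.1 and 157.1 CPM, with 183.4 and 181.3 CPM in Ctrl. In set 5, of batch c, the levels gave log2 ratios of -0.015 for Gad1 and -0.13 for Slc32a1. Per unit of the sum they became 0.19 and 0.07, because the sum was lower. The ratio thus cannot tell a change of these genes from a change of the sum.

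**Figure D4:**
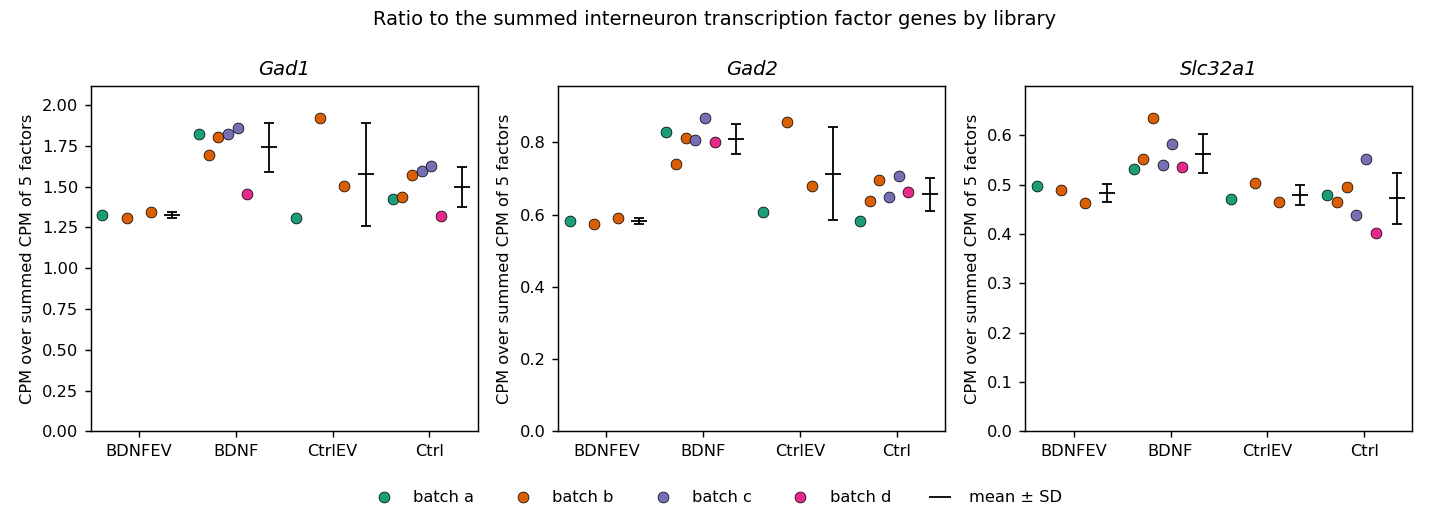
CPM of Gad1, Gad2 and Slc32a1 divided by the summed CPM of Lhx6, Dlx1, Dlx2, Dlx5 and Dlx6 in each library, coloured by batch, with the mean and SD of each group beside the points. For Gad2, the 6 BDNF libraries (0.741 to 0.868) lie above the 6 Ctrl libraries (0.581 to 0.706), while 1 CtrlEV library reaches 0.856.

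None of the 25 genes passed the test in BDNFEV against Ctrl, where 0.0224% of all genes passed (4 of 17892). At an unadjusted p under 0.05 there were 3 of 25, against 7.29% of all genes (1305 of 17892), and DESeq2 also called 0 of the 25. The smallest p was that of Calb2, at -0.29 ± 0.08 (SE, 95% interval -0.45 to -0.13, adjusted p = 0.346 by edgeR's quasi-likelihood test). The 3 BDNFEV libraries, at 83.2 to 108.6 CPM, lay inside the Ctrl range of 79.8 to 166.8 CPM. The ends of that range come from batches c and d, which hold no vesicle library. In sets 1 to 3, Calb2 was at 108.6, 89.3 and 83.2 CPM in BDNFEV and at 115.6, 106.6 and 112.2 CPM in Ctrl, lower in BDNFEV in each set. Log2 fold changes were -0.11 ± 0.08 for Gad1, -0.07 ± 0.07 for Gad2 and 0.08 ± 0.11 for Slc32a1. Calb2 passed when the fit held only the compared groups (-0.25, adjusted p = 0.0224), within batch b (-0.34, adjusted p = 0.0247) and without the filter on low counts (-0.29, adjusted p = 0.000343). For 23 of the 25 genes the log2 fold change lay within 0.2 of 0. The intervals, not adjusted for the number of genes tested, reached 0.17 to either side of the estimate at the median. Some were wider, as for Dlx6 (-0.79 to 0.015). Differences of 0.17 or less could not be resolved, and larger ones could fail the adjusted test too, as that of Calb2 did.

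None of the 25 passed in CtrlEV against Ctrl either, where 0.0335% of all genes passed (6 of 17892). There were 2 of 25 at an unadjusted p under 0.05, against 6.12% of all genes (1095 of 17892), and DESeq2 called 0 of the 25. Calb2 had the smallest p here too, at -0.25 ± 0.08 (SE, 95% interval -0.41 to -0.09, adjusted p = 0.782), and passed without the filter on low counts (-0.26, adjusted p = 0.00561). The comparisons of BDNFEV and of CtrlEV with Ctrl share their Ctrl libraries, so the like values of Calb2 are not independent of each other. Log2 fold changes were -0.11 ± 0.08 for Gad1, -0.02 ± 0.07 for Gad2 and -0.16 ± 0.11 for Slc32a1.

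Vesicles of BDNF-treated donors were also set against vesicles of control donors. In BDNFEV against CtrlEV, none of the 25 genes and 0% of all genes passed in edgeR's quasi-likelihood test. At an unadjusted p under 0.05 there were 2 of 25 and 1502 of 17892, and DESeq2 called 0 of each. Dlx1 had the smallest p, with 91.8, 54.4 and 53.2 CPM in BDNFEV and 88.7, 38.6 and 47.6 CPM in CtrlEV for sets 1 to 3. The groups overlapped and BDNFEV was higher in each set, with a log2 fold change of 0.22 ± 0.09 (SE, 95% interval 0.03 to 0.42, adjusted p = 0.565). It passed without the filter on low counts (0.24, adjusted p = 0.0388). The values were -0.0037 ± 0.09 for Gad1, -0.05 ± 0.07 for Gad2 and 0.24 ± 0.12 for Slc32a1.

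The direct comparison of both treatments tested whether the vesicles of BDNF-treated donors left these genes where BDNF itself did. In BDNFEV against BDNF, 5 of 25 genes passed, with 8.17% over all genes (3.3% higher and 4.87% lower). Gad1, Gad2 and Abat were lower and Gabra3 and Calb2 were higher in BDNFEV. Log2 fold changes of BDNFEV over BDNF were -0.40 ± 0.08 for Gad1 (adjusted p = 0.00571), -0.44 ± 0.07 for Gad2 (adjusted p = 0.000179) and -0.23 ± 0.05 for Abat (adjusted p = 0.00254). They were 0.55 ± 0.06 for Gabra3 (adjusted p = 2.06e-06) and 0.48 ± 0.08 for Calb2 (adjusted p = 0.000377).

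The BDNFEV and BDNF libraries did not overlap for Gabra3, at 69.8 to 86.4 CPM in BDNFEV and 38.1 to 64.7 CPM in BDNF. They overlapped for the other 4 genes. Slc32a1 was at -0.24 ± 0.11 (adjusted p = 0.197), and it passed within batch b (-0.40 ± 0.07, adjusted p = 0.00213). Within batch b, Gad1 (-0.49 ± 0.06), Gad2 (-0.50 ± 0.06), Abat (-0.23 ± 0.06), Gabra3 (0.54 ± 0.07) and Calb2 (0.34 ± 0.06) passed as well. Without the batch in the model, Gabra3 alone passed (0.63, adjusted p = 0.0147). This comparison shares its BDNF libraries with that of BDNF against Ctrl. Time differs too, since vesicles were present for 24 h and BDNF for 20 min, so agent and duration cannot be told apart.

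**Figure D5:**
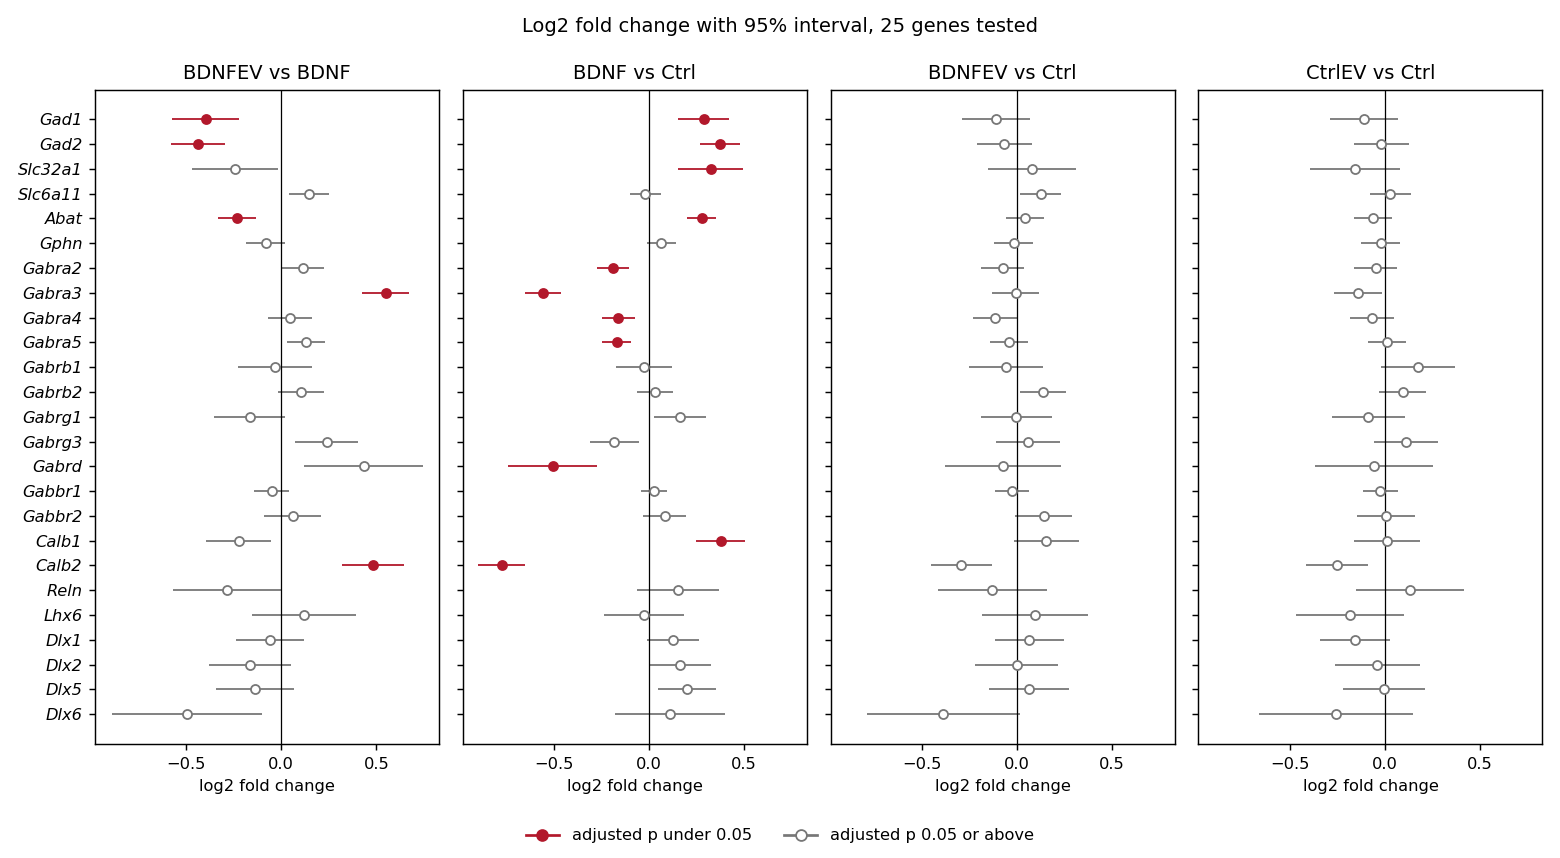
Log2 fold change with its 95% interval for the 25 genes tested, in BDNFEV against BDNF, BDNF against Ctrl, BDNFEV against Ctrl and CtrlEV against Ctrl, filled where the adjusted p was under 0.05. Of the 25, 5 passed in BDNFEV against BDNF, 11 in BDNF against Ctrl and 0 in each comparison of a vesicle group with Ctrl.

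Other genes of the pathway, 78 in number and listed with earlier results known, were read in the same fit. Of 68 tested, 14 rose and 3 fell in BDNF against Ctrl, and 0 passed in BDNFEV against Ctrl, in CtrlEV against Ctrl or in BDNFEV against CtrlEV. In BDNFEV against BDNF, 2 were higher and 7 lower. Over all genes tested, 7.36% rose and 6.26% fell in BDNF against Ctrl, and 3.3% were higher and 4.87% lower in BDNFEV against BDNF. Interneuron markers held most of the rises in BDNF against Ctrl, with 9 of 19 tested up, 0 down and a list median of 0.15. Npy, the neuropeptide Y gene, averaged 58.7 CPM in BDNF and 7.60 CPM in Ctrl (2.97 ± 0.08 on the log2 scale, adjusted p = 2.66e-15). Tac1, the substance P precursor gene, averaged 10.1 CPM in BDNF and 5.83 CPM in Ctrl (0.80 ± 0.08), and Elfn1, a synaptic adhesion gene of interneurons, averaged 48.4 CPM in BDNF and 36.1 CPM in Ctrl (0.42 ± 0.05).

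Among the other GABA-A subunits, 2 of 6 tested rose in BDNF and 0 fell. Gabrq, the theta subunit gene, was one of them (0.73 ± 0.14, adjusted p = 0.00106), at a mean of 2.45 CPM in BDNF and 1.53 CPM in Ctrl. Not every subunit gene of the receptor family was lower with BDNF. Of 14 genes for inhibitory synapse assembly and receptor trafficking, 2 rose, Trak1 (0.17 ± 0.03), which links cargo to motors, and Insyn1 (0.32 ± 0.06), a component of inhibitory postsynapses. Of 5 GABA-B auxiliary genes, Ajap1 fell (-0.30 ± 0.07). None of the 5 tested genes of other GABA transport and metabolism passed. Neither chloride cotransporter passed, with Slc12a5 at 0.02 ± 0.06 and Slc12a2 at -0.02 ± 0.04. Of 17 other interneuron transcription factors, 1 rose and 2 fell, Etv1 (-0.24 ± 0.05) and Zeb2 (-0.16 ± 0.05).

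Marker genes of other cell types also passed in BDNF against Ctrl, in most lists with both rises and falls. Of 8 progenitor and dividing cell genes 3 rose and 0 fell, Mki67 by 0.79 ± 0.10, Top2a by 0.67 ± 0.09 and Nes by 0.27 ± 0.04, and their sum was 686.4 to 1057 CPM in BDNF and 674.7 to 840.2 CPM in Ctrl. Of 11 excitatory neuron genes 2 rose and 3 fell, with Slc17a7 at 0.43 ± 0.05 and Slc17a6 at -0.27 ± 0.06. Of 9 astrocyte genes 2 rose and 3 fell, and of 8 oligodendrocyte lineage genes 3 rose and 2 fell. Of 10 striatal projection genes tested 2 rose and 1 fell, with Isl1, Foxp2 and Ebf1 under 1 CPM in every library. The pan-neuronal genes were split, 3 up and 2 down of 7, and their sum was 5318 to 6036 CPM in BDNF and 5386 to 6129 CPM in Ctrl. Over all genes tested, 7.36% rose and 6.26% fell in this comparison. The part of these cell types in the changes of the GABA genes was not tested.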

How the data were processed

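RNA of 18 hippocampal libraries was analysed, and 24 small RNA libraries of the series were not used. The table holds raw counts per Ensembl gene as deposited by the authors. Per the labels' protocols, libraries were made with the TruSeq kit v2, which by its usual description does not mark strand, and read as single 50 bp reads. The submitters' processing notes name cutadapt 1.8.1, CASAVA (1.8 and 1.8.2), DESeq2 and the mm10 build. Aligner, counter and annotation release: not given in the sources used here.

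Counts were tested with edgeR 4.0.16 (R 4.3.3), with TMM scaling, the edgeR filter at a minimum count of 10, a robust quasi-likelihood fit of group and batch over all 18 libraries, and Benjamini-Hochberg adjustment over 17892 genes. A fold change with its SE or 95% interval comes from this fit. Scripts were tested on simulated data. Members and lists were chosen with earlier results of these data known. Named were genes that passed in any comparison, Gad1, Gad2 and Slc32a1 always, the smallest p where none passed, and up to 3 of each other list, some of which are not reported here. Same-numbered libraries deviated together from their group means (correlation 0.18 to 0.575 in every pair), and deviations that a whole batch shares are part of this. The set numbers, which are the replicate numbers of the labels, were taken to pair the libraries. In 6 of 18 pairs the best match was the other set of the same batch. Such a mismatch was possible in batches b and c alone, since sets 1 and 6 are each the only set of their batch. Pairing by set within batches b and c was thus not shown, and the counts of sets rest on the label numbers. Alternatives were RLE factors, DESeq2 1.42.0, no filter, no batch term, a replicate block, fewer libraries and single batches. Symbols were matched through the Ensembl ids for 26 of 26 genes. Positions and promoters are from RefSeq (GRCm38.p6), with positions for 26 of 26 genes and promoters for 20.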

Additional observations from a re-analysis of the deposited data

Results flagged for a closer look

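The BDNF effect in batch b minus that in batch c passed a test of the difference for Gad1 (0.48 on the log2 scale, 0.53 in batch b and 0.05 in batch c), for Slc32a1 (0.58, with 0.61 and 0.04) and for Lhx6 (0.69, with 0.36 and -0.33). Each batch holds 2 libraries of each group here, and what the batches are is not stated in the labels.

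In 2 of 50 groups of libraries examined, 1 library stood far from the others. Abat was at 158.8 CPM in BDNF set 1, with the other BDNF libraries at 128.2 CPM or less. Slc6a11 was at 223.9 CPM in Ctrl set 1, with the other Ctrl libraries at 205.9 CPM or less. The cut used was Dixon's critical value at 95%, at which chance flags about 1 group in 20.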

How the results depend on the processing

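For 26 results 713 recalculations were run, 443 of results that passed and 270 of results that did not. No fold change that passed changed sign. Of those that did not pass, 5 changed sign in 21 recalculations, with Gad1 from -0.20 to 0.04 and Gad2 from -0.18 to 0.03 in BDNFEV against Ctrl, Gad1 from -0.20 to 0.08 and Gad2 from -0.13 to 0.10 in CtrlEV against Ctrl, and Gad1 from -0.05 to 0.04 in BDNFEV against CtrlEV. Of the 713, 677 kept their side of the threshold, 31 lost the call and 5, all of Slc32a1 in BDNFEV against BDNF, gained it. Without the batch term, 4 of the set passed in BDNF against Ctrl (843 of all genes) and 1 in BDNFEV against BDNF (870), and 2 of all genes in either vesicle group against Ctrl. Gad1, Gad2, Slc32a1, Abat, Calb1, Gabra4 and Gabra5 lost their calls in BDNF against Ctrl there, and the values of Gad1 (0.27) and Gad2 (0.36) hardly moved. The cause was not tested.

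In BDNF against Ctrl, 7 of the set passed within batch c (1213 of all genes), 9 within batch b (833), 8 in batches a and b (1064) and 9 without batch c, an alternative added after the data were seen (1449). In BDNFEV against Ctrl, 1 of the set passed with only the compared groups (269 of all genes), 1 within batch b (114) and 1 without the filter (156), and all genes came to 32 by DESeq2 and 12 in batches a and b. Without the filter, 1 of the set passed in CtrlEV against Ctrl (38 of all genes) and 1 in BDNFEV against CtrlEV (167), where batch b alone gave 118. In BDNFEV against BDNF, batch b alone gave 611 of all genes.

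Leaving out each library gave 9 to 13 of the set and 1793 to 2520 of all genes in BDNF against Ctrl. In BDNFEV against Ctrl it gave 0 of the set and 4 to 14 of all genes (14 without CtrlEV set 2), in CtrlEV against Ctrl 0 and 3 to 7 (3 without CtrlEV set 2), and in BDNFEV against CtrlEV 0 and 0 to 1 (1 without CtrlEV set 3 or BDNFEV set 1). In BDNFEV against BDNF it gave 5 to 8 of the set, with 8 without BDNF set 3, and 704 to 1599 of all genes, with 951, 704 and 925 without BDNFEV sets 1, 2 and 3. With the replicate block, which pairs libraries by set, 11, 0, 0, 0 and 5 of the set passed in BDNF against Ctrl, BDNFEV against Ctrl, CtrlEV against Ctrl, BDNFEV against CtrlEV and BDNFEV against BDNF, so it changed none of these counts.

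With 3 libraries in each vesicle group, intervals reached about 0.17 on the log2 scale to either side at the median. Gabrd, with 40 to 108 counts per library, and Pvalb, with 0 to 4, are limited by depth.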

Other observations

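The steadiness of the Ctrl libraries differed between these genes. The highest over the lowest Ctrl library was 2.11 for Lhx6, 2.09 for Calb2, 1.97 for Slc32a1, 1.91 for Dlx1, 1.83 for Gad1 and 1.79 for Gad2, but 1.06 for Gabbr1 and 1.17 for Gabra2 and for Gabra5. For Gad1, Gad2, Slc32a1, Lhx6 and Dlx1, set 1 was the highest library of BDNFEV, BDNF and CtrlEV, and sets 2 and 3 were the lowest libraries of Ctrl.

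Dlx6 was at 2.29, 1.89 and 2.18 CPM in BDNFEV and at 1.83 to 2.85 CPM in Ctrl, and had the lowest log2 fold change of the 25 genes in that comparison (-0.39 ± 0.19, adjusted p = 0.708). Reln was at 711.3, 497.3 and 438.2 CPM in BDNFEV and at 770.7, 672.9 and 514.7 CPM in CtrlEV for sets 1 to 3, lower in BDNFEV in each set, and did not pass (-0.26 ± 0.14, adjusted p = 0.636).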
